A study of Mus musculus with 6 samples.

Results

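The small heat shock proteins and their cochaperones were followed as 10 genes, chosen from the array rows by their gene symbol: Hspb1, Hspb2, Hspb6, Hspb7, Hspb8 and Cryab, which encode small heat shock proteins, Bag3, Hspa1a and Dnajb1, which encode their chaperone partners, and Hsf1, which encodes the transcription factor of the heat shock response. The symbols matched 11 of the 35556 rows, with 1 row for each gene except Hspb1. The row kept for each gene was selected by the highest mean over the 6 arrays, and the genes themselves were proposed with the contrast between the groups already known. Their differences are therefore given as a description, without a p-value. In all, the arrays named 22300 genes.

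The series profiled mesenchymal stem cells of mouse bone marrow on Affymetrix arrays. These are the adherent stromal cells that can give rise to bone, fat and cartilage. The first group was Clone 4L.1.4, a tertiary clone that came from the population MSC21, and the second was MSC21 itself, with 3 arrays each. All 6 cultures were grown to confluence in stem cell medium and none received a further treatment in the labels, which give no strain, age or sex. The clone group is 1 clone and the population group 1 population, so p-values measure the spread between cultures of these only, which may be technical.

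Small heat shock proteins bind unfolding proteins and keep them soluble without using ATP. Hsp70 chaperones such as HSPA1A then refold these clients or pass them on to degradation, J-domain proteins such as DNAJB1 start the ATP cycle of Hsp70, and nucleotide exchange factors such as BAG3 end it. HSPB8 and BAG3 form a complex that sends damaged filamin to autophagy in muscle, and CRYAB, HSPB2, HSPB6 and HSPB7 are abundant in muscle and heart. HSF1 binds heat shock elements, repeats of GAA and its complement, and turns on many of these genes when proteins unfold.

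Levels are log2 values, differences are the clone mean minus the population mean on that scale, and a gene was called when the adjusted p of limma's moderated test over all rows was under 0.05. The array medians lay between 5.19 and 5.25 and their lower quartiles between 4.54 and 4.58, and arrays of 1 group correlated across rows at 0.9946 to 0.9958, against 0.9749 to 0.9793 between groups. No floor was measured for levels as low as the lower quartile, so the size of a difference that ends there is not exact. Of 10 stromal markers 4 were called higher and 4 lower, where 12.8% and 10.9% of all rows were. Among them, Twist2 differed by 1.64, Pdgfra by 1.43 and Thy1 by -1.82. Thy1 had 4.61 in the clone, near the low end, and 6.43 in the population. Twist2 had 6.21 in the clone and 4.57 in the population, also near the low end, so neither size is exact. Eng stood near the low end in both groups, at 4.88 in the clone and 4.89 in the population. The pan-leukocyte gene Ptprc had 4.39 in the clone and 4.37 in the population. In these bulk cultures, fewer cells of a type and less RNA per cell cannot be told apart.

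Of the 10 genes, 5 were called lower in the clone, where 10.9% of all rows were, and none was called higher, where 12.8% were; either way the call covered 23.8% of rows. Of the 10 genes, 9 had a mean above the median row, and of all rows above it 19.3% were called lower and 22.8% higher. The 5 called lower were Hspb8, Hspb1, Hsf1, Hspb7 and Hspa1a, and the 5 not called were Hspb2, Hspb6, Cryab, Bag3 and Dnajb1. Without adjustment, limma put 5 lower and 1 higher. The authors' deposited p-values, adjusted here by Benjamini-Hochberg over all rows, called 4 lower and 0 higher. The median difference over the 10 genes was -0.16, against -0.01 over all named genes. The 3 clone arrays lay below the 3 population arrays in the same 5 genes and overlapped them in the other 5, where 37.2% of rows did not overlap. As the genes were chosen with this contrast known, nothing is read from these counts.

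**Figure D1:**
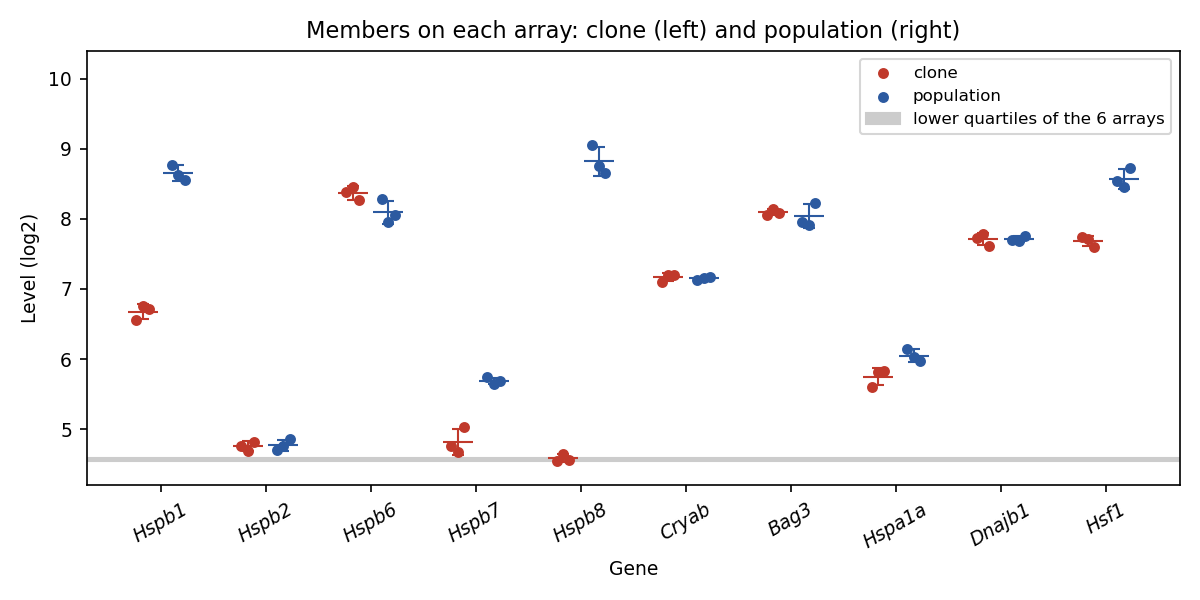
Log2 level of the 10 genes on each array, with clone arrays in red left of population arrays in blue. Points are arrays, horizontal bars with whiskers are means ± SD (n = 3 each), and the grey band spans the lower quartiles of the 6 arrays. Hspb8 stood at 4.55 to 4.65 in the clone and 8.65 to 9.05 in the population.

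Among the small heat shock protein genes, 3 were called lower in the clone and 3 were not called. Hspb8, the partner of Bag3, had the widest gap. Its levels were 4.55, 4.65 and 4.55 on the clone arrays and 9.05, 8.76 and 8.65 on the population arrays. Every clone array thus lay near the lower quartiles of the arrays and every population array far above them. The means were 4.59 ± 0.06 in the clone and 8.82 ± 0.21 in the population (SD, n = 3 each), a difference of -4.24 ± 0.11 (SE), or 18.8-fold lower. Only 26.3% of rows had a lower clone mean, while 86.9% had a lower population mean, so the size of this difference is not exact.

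Hspb1 encodes the small heat shock protein that binds actin filaments and is phosphorylated under stress. It had 6.56, 6.76 and 6.71 in the clone, against 8.77, 8.62 and 8.56 in the population. The groups were 1.79 log2 units apart at their nearest arrays, and all arrays lay above the array medians. The difference was -1.98 ± 0.08 (SE), or 3.94-fold lower. The further row for Hspb1, left out because its mean was lower, had 6.30, 6.60 and 6.24 in the clone and 8.56, 8.33 and 8.51 in the population. It differed by -2.08 ± 0.11, close to the first row; whether the rows share probes or sequence is not given in the sources used here.

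Hspb7, a small heat shock protein of heart and muscle, had 4.76, 4.67 and 5.03 in the clone and 5.74, 5.64 and 5.68 in the population. The clone arrays lay below the array medians and the population arrays above them, without overlap. The difference was -0.87 ± 0.10 (SE), or 1.82-fold lower, and is not exact at this clone level. The clone arrays spread more (SD 0.19) than the population arrays (SD 0.05).

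Cryab, which encodes the alpha B-crystallin of lens and muscle, had 7.10, 7.21 and 7.20 in the clone and 7.12, 7.15 and 7.18 in the population. The groups overlapped fully, with a difference of 0.02 and a 95% interval of -0.11 to 0.14. Hspb2, whose annotated span overlaps that of Cryab on chromosome 9, had 4.76, 4.69 and 4.82 in the clone and 4.70, 4.75 and 4.86 in the population, near the low end on every array. Its difference was -0.01, with a 95% interval of -0.17 to 0.14. At this level a change of Hspb2 may not have been detectable.

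Hspb6, which encodes the small heat shock protein of smooth and heart muscle known for its phosphorylation by cyclic nucleotide kinases, was the small heat shock gene with the highest clone value relative to the population. Its levels were 8.38, 8.46 and 8.26 in the clone and 8.28, 7.96 and 8.06 in the population. Population array 1 lay just above clone array 3, and the other arrays did not overlap. The difference was 0.27 with a 95% interval of 0.04 to 0.50 before adjustment, and was not called. Without population array 1 it was 0.36 and was called higher. The median difference of chromosome 7, which carries Hspb6, was 0.18, and 0.09 was left when chromosomes were centred.

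The sequences before the start of these genes are shown because the heat shock element is the known binding site of HSF1 and the genes did not differ alike. RefSeq windows of GRCm38.p6 were matched by symbol for 7 of the 10 genes, and the 250 bases before each start were searched on both strands for GAANNTTC and TTCNNGAA, which read the same on either strand. At their first start, 2 of the 7 held a match, Hspb1 and Hspa1a, and Hspb6 held 1 at its second start. Of 32851 windows of this length over all genes, further starts included, 12.8% held either form. Forms with a further GAA or TTC unit at the same spacing, which overlap these, stood in 0.466% of all windows and in none of the windows of the 7 genes. Hspb1 is given with both of its matches, 117 and 97 bases before the start, Hspa1a with its match at 104, and Hspb8 and Bag3 as the genes with the widest gap and with no call. Capitals mark the matches, and a match is not a shown binding site. Imperfect forms and other spacings were not searched, so a window without a match is not shown to lack a site.
Hspb1 (chr5:135887669-135887918, plus strand): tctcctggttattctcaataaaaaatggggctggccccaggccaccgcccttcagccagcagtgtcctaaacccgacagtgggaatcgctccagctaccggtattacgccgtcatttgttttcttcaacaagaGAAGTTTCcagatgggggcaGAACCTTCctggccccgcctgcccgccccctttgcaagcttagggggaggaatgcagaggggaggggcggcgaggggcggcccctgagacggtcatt
Hspa1a (chr17:34972157-34972406, minus strand): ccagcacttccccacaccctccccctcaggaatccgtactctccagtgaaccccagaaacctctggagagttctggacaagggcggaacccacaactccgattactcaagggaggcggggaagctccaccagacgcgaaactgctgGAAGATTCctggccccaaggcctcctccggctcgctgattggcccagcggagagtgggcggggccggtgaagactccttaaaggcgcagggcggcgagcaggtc
Hspb8 (chr5:116422865-116423114, minus strand): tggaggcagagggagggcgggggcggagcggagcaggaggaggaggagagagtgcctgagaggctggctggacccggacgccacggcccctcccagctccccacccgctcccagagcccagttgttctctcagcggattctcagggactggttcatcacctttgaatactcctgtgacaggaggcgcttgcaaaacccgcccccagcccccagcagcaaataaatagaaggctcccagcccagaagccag
Bag3 (chr7:128523333-128523582, plus strand): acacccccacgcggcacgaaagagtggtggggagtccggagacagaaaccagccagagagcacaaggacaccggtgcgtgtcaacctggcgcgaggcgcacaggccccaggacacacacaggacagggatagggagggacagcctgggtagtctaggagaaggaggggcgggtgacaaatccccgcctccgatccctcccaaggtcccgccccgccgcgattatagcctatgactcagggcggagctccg

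Among the genes of the chaperone partners, the Hsp70 gene Hspa1a was called lower and the cochaperone genes Bag3 and Dnajb1 were not called. Bag3, the nucleotide exchange factor that binds HSPB8, had 8.05, 8.14 and 8.09 in the clone and 7.96, 7.92 and 8.23 in the population. Population array 3 was the highest of the 6, and the groups overlapped. The difference was 0.06, with a 95% interval of -0.16 to 0.27.

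Dnajb1, the J-domain protein that works with HSPA1A and is itself heat inducible, had 7.73, 7.79 and 7.61 in the clone and 7.69, 7.69 and 7.76 in the population. Its arrays overlapped, with a difference of 0.00 and a 95% interval of -0.15 to 0.15. Hspa1a, the stress-induced Hsp70, had 5.61, 5.81 and 5.83 in the clone and 6.14, 6.03 and 5.97 in the population. The groups lay only 0.13 apart. The difference of -0.30 ± 0.08 (SE) was called lower, or 1.23-fold, but the call was lost whichever 1 of the 6 arrays was left out, with values between -0.34 and -0.23. Hspa1b, a near-identical copy of Hspa1a next to it on chromosome 17, had 7.02, 7.17 and 7.01 in the clone and 7.74, 7.70 and 7.51 in the population, a fall of 0.58 ± 0.08 (limma adjusted p = 0.00245). Both values are uncertain, since probes for near-identical genes can share signal.

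Hsf1 had 7.75, 7.71 and 7.60 in the clone and 8.54, 8.45 and 8.73 in the population. The groups were 0.70 apart at their nearest arrays. The difference was -0.89 ± 0.08 (SE), or 1.85-fold lower. Hsf1 lies on chromosome 15, where the median difference over 489 named rows above the median level was -0.48, and centring each chromosome left a difference of -0.41, still called lower. Hspa1a lies on chromosome 17, whose median was 0.22, and centring moved its difference to -0.52. Chromosome 5, which carries Hspb1 and Hspb8, had a median of 0.21, so centring made their differences wider, at -2.18 and -4.44. The part of these chromosome shifts in the differences was not tested.

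**Figure D2:**
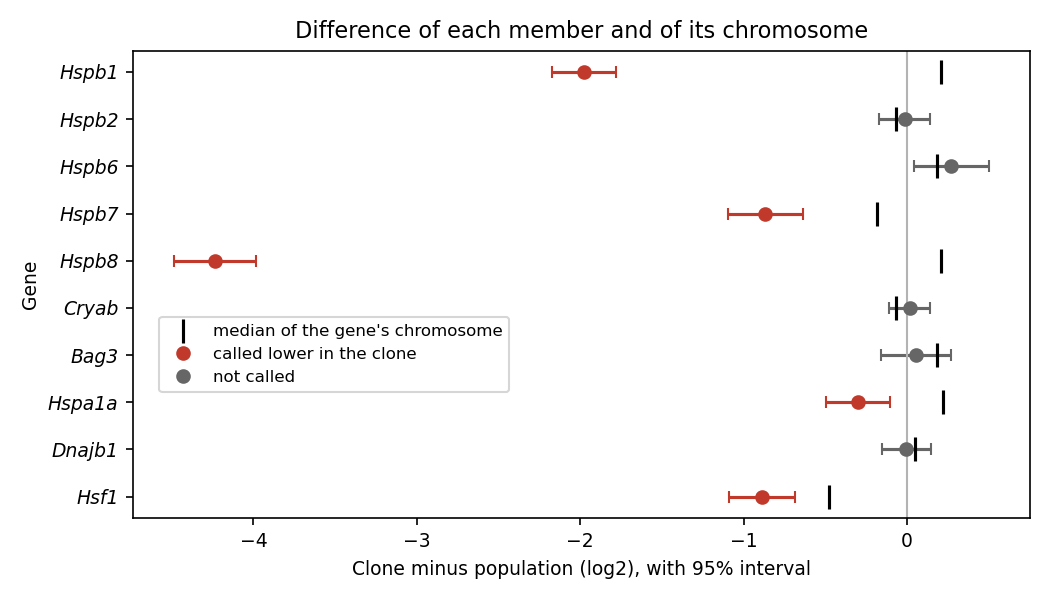
Difference of each of the 10 genes between clone and population (log2, clone minus population) with its 95% interval from limma, before adjustment. Red points were called lower in the clone, grey points were not called, and black ticks give the median difference of the chromosome that carries the gene. Hsf1 (-0.89) lay 0.41 below the median of chromosome 15.

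The 5 genes whose values over the 6 arrays lay nearest to those of Hspb8, each centred on its own mean, were Loxl2, a collagen cross-linking enzyme, Actg2, an actin of smooth muscle, Cth, an enzyme that makes cysteine, Tnfrsf9, a receptor of the tumour necrosis factor family, and Akr1c18, a steroid reductase. Their root mean square distances to Hspb8 ran from 0.13 to 0.24 log2 units, among 19079 named genes searched. Loxl2 had 6.04, 6.26 and 6.12 in the clone and 10.35, 10.26 and 10.36 in the population. Actg2 had 6.49, 6.54 and 6.35 in the clone and 10.46, 10.42 and 10.54 in the population. The likeness is that of 2 groups of 3 arrays, and therefore mainly that of the size of the gap.

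**Figure D3:**
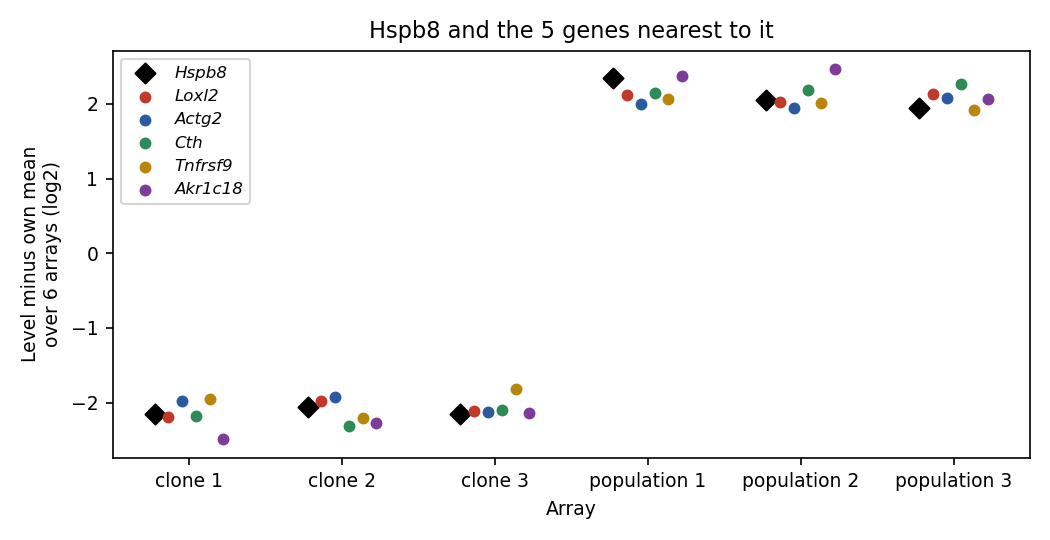
Log2 level minus the gene's own mean over 6 arrays, for Hspb8 (black diamonds) and the 5 named genes nearest to it by root mean square distance (coloured points), on clone arrays 1 to 3 and population arrays 1 to 3. The distances ran from 0.13 for Loxl2 to 0.24 for Akr1c18.

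Some markers of contractile smooth muscle differed in the same direction as Hspb8 and Hspb1. Of 8 such markers, 6 were called lower and 1, the transcriptional coactivator gene Myocd, higher by 0.33 (limma adjusted p = 0.0158). The authors' deposited table gave 5 lower and 0 higher. Of all rows 10.9% were called lower and 12.8% higher, and of rows above the median row 19.3% and 22.8%. As the lists were made with earlier results of these data known, nothing is read from the count. The summed log2 level of the 8 markers ran from 57.8 to 58.4 in the clone and from 67.4 to 67.9 in the population. Most of the gap between the sums came from Actg2 and Cnn1. Actg2 differed by -4.01, the calponin gene Cnn1 by -3.21, the transgelin gene Tagln by -1.18 and Smtn by -0.50 (limma adjusted p = 5.83e-07 to 0.00698). Acta2, another smooth muscle actin gene, was called lower by 0.50 but stood high in both groups, at 12.60 in the clone and 13.10 in the population. Myh11, the defining smooth muscle myosin, stood near the low end at 4.68 in the clone and 4.66 in the population. Of 12 striated muscle markers in limma's fit only Myod1 was called, higher by 0.33, with 4.82 in the clone and 4.49 in the population. The sums ran from 57.4 to 58.9 in the clone and from 57.7 to 58.1 in the population. The desmin gene Des had 4.54 in the clone and 4.49 in the population. Of these 12 markers, 10 had clone means below the median row, so a change in them may not have been detectable. The part of contractile cells in the differences of the small heat shock genes was not tested.

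Leukocyte markers gave 1 higher (Lyz2, 0.35) and 1 lower (Cd53, -0.87) of 9, where 12.8% and 10.9% of all rows were called. The authors' deposited table gave 0 higher and 1 lower. The sums of the 9 markers ran from 42.2 to 42.7 in the clone and from 43.0 to 43.5 in the population. The Lyz2 call was also lost without moderation and without clone array 3 (0.29). Endothelial markers gave 0 calls of 6 in limma, 0 at an unadjusted p under 0.05 and 0 from the authors' deposited table, and 2 higher and 2 lower with chromosomes centred. Their sums overlapped at 26.0 to 26.9 in the clone and 26.5 in the population. All 6 endothelial and 8 of the 9 leukocyte markers had clone means below the median row. At such levels a change may not have been detectable. The part of these cells in the differences of the small heat shock genes was not tested either.

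Other chaperone genes were read from lists made with earlier results of these data known. Of 100 such genes, all of them measured, 31 were lower and 12 higher in limma's test, with a median difference of -0.08. Most of them, 88, had a mean above the median row, where 19.3% of all rows were called lower and 22.8% higher. Their differences ran from -1.41 to 0.84. None was as low as Hspb1 and 3 differed at least 2-fold, all of them lower, namely Hspa4l, Dnajb4 and Sil1. Since Hspb1 was proposed with this contrast known, nothing is read from its rank.

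**Figure D4:**
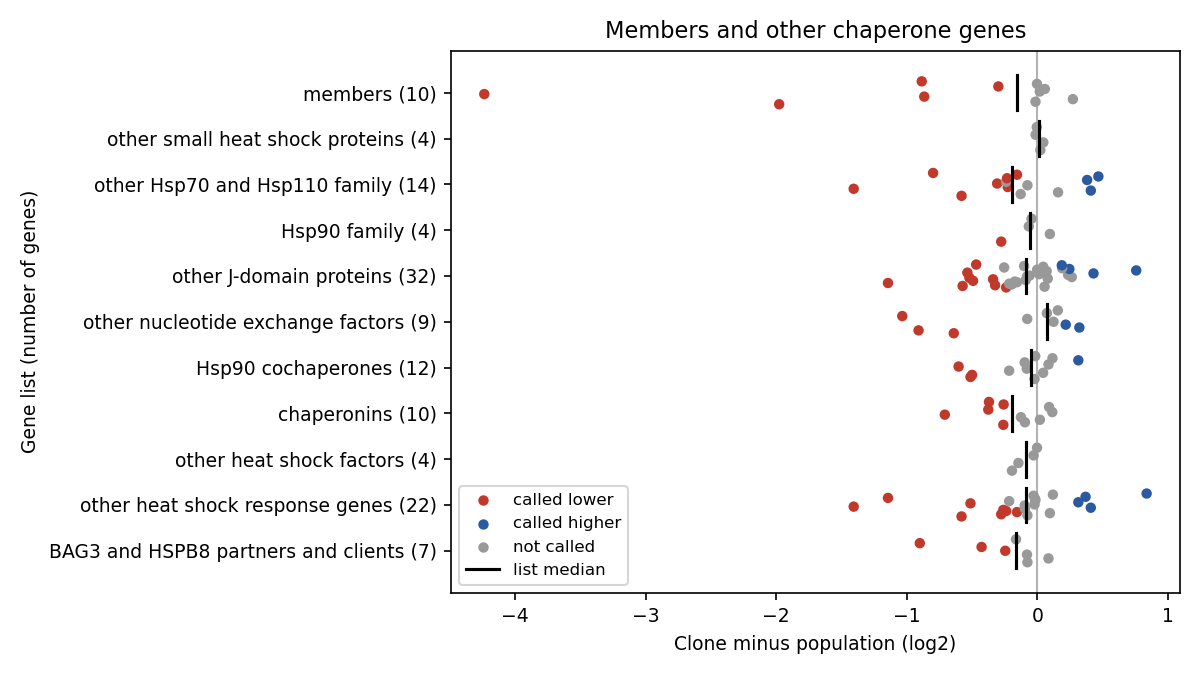
Difference between clone and population (log2, clone minus population) of the 10 genes in the top row and of each other chaperone list below, with 1 point per gene and a black bar at the list median. Red points were called lower, blue points higher and grey points neither; some genes stand in more than 1 list, and the heat shock factor list includes Hsbp1. Hspb8 (-4.24) and Hspb1 (-1.98), which were chosen with this contrast known, lay below every gene of the other lists.

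The further small heat shock protein genes Cryaa, Hspb3, Hspb9 and Odf1 gave 0 calls of 4 in limma, 0 at an unadjusted p under 0.05 and 0 from the authors' deposited table, with differences between -0.01 and 0.05. With chromosomes centred, 1 was called higher and 2 lower. All 4 had clone means below the median row, at levels such as 4.45 for Hspb3 in the clone and 4.40 in the population, so a change may not have been detectable.

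In the Hsp70 and Hsp110 family besides Hspa1a, 7 of 14 genes fell and 3 rose. Hspa4l, an Hsp110 type exchange factor, had 7.40, 7.43 and 7.45 in the clone and 8.73, 8.90 and 8.87 in the population, a fall of 1.41 ± 0.06 (limma adjusted p = 1.81e-05). The groups lay far apart. Hyou1, the Hsp110 relative of the endoplasmic reticulum, fell by 0.80, and Hspa14, an Hsp70 that works at the ribosome, rose by 0.47. Hspa8, the constitutive Hsp70 to which BAG3 also binds, differed by -0.08 ± 0.05 (limma adjusted p = 0.327). It was called lower without moderation and from the authors' deposited p-values, which are not separate checks. Hsph1, the inducible Hsp110, was at the threshold, with -0.16 and a limma adjusted p of 0.0496, lost whichever 1 array was left out (-0.16 to -0.15).

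The Hsp90 genes gave 1 lower and 0 higher of 4, and without adjustment and from the authors' deposited table also 1 lower and 0 higher. Hsp90aa1, the inducible cytosolic form, fell by 0.28 ± 0.06 (limma adjusted p = 0.0115), and Hsp90ab1, the constitutive form, differed by 0.10 ± 0.05 (limma adjusted p = 0.269). Hsp90 cochaperones gave 3 lower and 1 higher of 12, against 6 and 1 with chromosomes centred. Ppid, a cyclophilin, fell by 0.60, Stip1, which links Hsp70 and Hsp90, by 0.51 and Cdc37, which brings protein kinases to Hsp90, by 0.50, whereas Cacybp rose by 0.31 (limma adjusted p = 0.000742 to 0.00651).

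Of 32 other J-domain genes 9 fell and 4 rose, against 7 and 2 from the authors' deposited table. Dnajb4, a cytosolic relative of Dnajb1, had 7.64, 7.52 and 7.44 in the clone and 8.61, 8.67 and 8.75 in the population. Its arrays did not overlap, unlike those of Dnajb1, and it fell by 1.14 ± 0.07 (limma adjusted p = 6.84e-05). Dnaja3, a J-domain protein of mitochondria, fell by 0.57 and Dnajc8 by 0.54, while Dnajc12 rose by 0.76. Hspa4l, Dnajb4, Ppid and the chaperonin gene Cct3 lie on chromosome 3, whose median difference was -0.39. The part of this shift in their differences was not tested.

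Of 9 other exchange factors 3 fell and 2 rose, against 2 and 0 from the authors' deposited table and 3 and 0 with arrays centred on their medians. Sil1, which acts on the Hsp70 of the endoplasmic reticulum, fell by 1.03 ± 0.10 (limma adjusted p = 0.000587) and Bag2, an inhibitor of the ubiquitin ligase encoded by Stub1, by 0.91 ± 0.11 (limma adjusted p = 0.00113). Bag1 (-0.64) and Bag4 (0.32) were called as well. The call of Bag1 was lost without any 1 of the population arrays (-0.67 to -0.61), and that of Bag4 without any 1 of the population arrays or without clone array 1 or 2 (0.23 to 0.35). Chaperonins, the ring-shaped folding machines, gave 5 lower and 0 higher of 10, with 6 and 0 without adjustment and also 6 and 0 from the authors' deposited table. Cct3 (-0.71), Cct5 (-0.38), Cct8 (-0.37) and Hspd1 (-0.26) fell; with chromosomes centred Cct5, on chromosome 15, turned to 0.10 and was not called.

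The heat shock factor genes Hsf2, Hsf4 and Hsf5, with Hsbp1, which encodes a protein that binds HSF1, gave 0 calls of 4 in limma, 1 lower at an unadjusted p under 0.05 and 0 from the authors' deposited table. Hsf2, which can pair with HSF1, differed by -0.19 ± 0.08 (limma adjusted p = 0.148). Among 22 further genes known to respond to heat shock, which overlap the lists above, 8 fell and 4 rose, with a median of -0.09. Beside Hspa4l, Dnajb4 and Hspa1b, the largest change was in Hmox1, heme oxygenase, which rose by 0.84 ± 0.14 (limma adjusted p = 0.00499).

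Partners and clients of the HSPB8 and BAG3 complex gave 3 lower and 0 higher of 7, with 4 and 0 without adjustment and 4 and 0 from the authors' deposited table. Flna, which encodes an actin cross-linker, fell by 0.43 ± 0.05 (limma adjusted p = 0.00157). Flnc, the muscle filamin, had 9.97 ± 0.03 in the clone and 10.13 ± 0.08 in the population (SD, n = 3 each). Its groups did not overlap, yet it was not called (-0.16 ± 0.06, limma adjusted p = 0.0935). Flnc was called lower with arrays centred on their medians (-0.20) and with chromosomes centred (-0.21). Sqstm1, an autophagy receptor, fell by 0.25. Stub1, the ubiquitin ligase of the complex, differed by 0.09 (limma adjusted p = 0.472), and Synpo2, which links BAG3 to the autophagosome, stood near the low end with 4.34 in the clone and 4.42 in the population.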

How the data were processed

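Total RNA of 3 cultures of a mouse bone marrow mesenchymal clone and 3 of its parent population was biotin-labelled for Affymetrix arrays, per the labels. The authors deposited log2 values, for which the submitters' processing notes name RMA and Partek without versions; neither the array type nor the genome build is given in the sources used here. RMA quantile-normalizes the arrays, so changes in total RNA per cell are not visible. The authors' deposited table holds, per the file headers, a p-value without adjustment and a signed fold of clone over population, used as a score; its log2 fold matched the difference of means to within 7.81e-05. In the same table, 6 columns of array values carry names that match no label and stayed unused.

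All 35556 rows were fitted with limma 3.58.1 (lmFit, eBayes) in R 4.3.3 (degrees of freedom 4 residual, 2.72 prior). The tests were two-sided, with Benjamini-Hochberg adjustment over all rows, and every adjusted p printed is from this fit. Calls from the authors' deposited table used its p-values after the same adjustment, made here. The number of arrays limits the precision. Symbols were the deposited ones, updated for lists through RefSeq names (GRCm38.p6): 18923 rows had a current symbol, 3890 an older one, 2310 an unmatched one and 10433 none. Where a gene had several rows, that with the highest mean stood for it. Each row took the chromosome of its symbol, and where its probes lie or whether rows share probes was not checked. Chromosome medians used rows with a chromosome above the median level. Tests were checked on simulated data.

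The genes and lists were chosen with earlier results of these data known. Named were all 10 genes, up to 4 called genes per list with the largest absolute difference, and 11 further genes whatever their result. The 5 genes nearest to Hspb8 were named too. Genes outside this rule were chosen after their values were seen, namely Cryaa, Hspb3, Hspb9, Odf1, Hsf4, Hsf5, Hsbp1, Acta2, Myh11, Myocd and Eng. A gene that the rule names is not reported here. Alternatives were a replicate block, another quantile normalization, centring of arrays or chromosomes, a filter on dim rows, a variance trend, array weights, no moderation, stricter thresholds, averaging a gene's rows, p-values from the authors' deposited table, and each array left out in turn.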

Additional observations from a re-analysis of the deposited data

How the results depend on the processing

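Hspb8, Hspb1, Hspb7 and Hsf1 were called lower in all 18 alternatives. No moderation and the authors' deposited p-values, with 6254 and 6252 rows called, gave the same calls for all 10 genes and are not separate checks. Hspb8 ran from -4.44 to -4.12, Hspb1 from -2.18 to -1.92, Hspb7 from -0.97 to -0.68 and Hsf1 from -0.95 to -0.41. Hspa1a was called lower in 6 of 18 and not called in 12, with values from -0.52 to -0.23. Cryab, Bag3 and Dnajb1 were called in none of 18 and Hspb2 in none of 17, and each turned sign in 2 or 3 settings; Hspb6 was called in 1. The number of rows called was 8446, and fell to 5252 at an adjusted p under 0.01 and to 3105 with a fold of at least 1.5 required, since both settings are stricter by construction. Over single arrays left out it ran from 6630 to 7585, the 10 genes called lower numbered 4 throughout, against 5 with all arrays, and those called higher ran from 0 to 1. With the sample number as a replicate block, 6669 rows and 4 of the 10 genes were called lower or higher, the lost gene being Hspa1a. Same-numbered arrays correlated at -0.18, -0.14 and -0.04 in their deviations from the group means, so the numbers were not taken to pair the cultures. With chromosomes centred, Lyz2 (0.14) and Myod1 (0.15) lost their calls and Hsf2 (-0.40), Flnc (-0.21) and Synpo2 (0.31) gained one, and 46 of the 100 other chaperone genes were called lower. That setting shifts every row of a chromosome, dim rows too, and gave 1 higher and 2 lower of 4 other small heat shock genes, 0 and 2 of the 4 genes Hsf2, Hsf4, Hsf5 and Hsbp1, 2 and 2 of 6 endothelial markers, 1 and 5 of 12 striated muscle markers and 0 and 4 of 9 leukocyte markers. With rows averaged, Hsp90aa1 (-0.23) lost its call. Arrays give no depth; genes near the lower quartiles, such as Hspb2 and Hspb8 in the clone, have no measured floor.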
